A study of Homo sapiens with 6 samples.

Results

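CTCF regions that stood alone, with no other CTCF region within 100 kb on either side, were described in HCT-116 cells, a human colon cancer cell line. Peak lists of clone D3, clone E4 and wild-type cells (WT) were merged wherever peaks overlapped by at least 1 bp on chromosomes 1 to 22. This gave 58351 regions, and the 1536 with a gap over 100,000 bp to the neighbour on both sides, 2.63% of them (2.50 to 2.77), are called isolated here. They were chosen by the measured positions of the peaks, so their spacing is a description, and so are the strength, width and calls of the same peaks. The same lists gave every value below, apart from the positions of the windows of long genes and gene-poor blocks, and no test was run. D3 and E4 are 2 clones of HCT-116 whose genotype label reads CTCF mutation, without saying whether the gene or a binding site was altered. The title of the series names a distal CTCF binding site and the gating of MYC. No treatment was applied. Each population had 1 CTCF library, and a line grown from 1 clone differs from its parent for more reasons than the mutation, which this design cannot tell apart. The 3 libraries made without antibody were not analysed here.

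CTCF is a zinc-finger protein that binds a long DNA motif and halts the cohesin complex, which extrudes chromatin loops, so that pairs of CTCF sites often mark loop anchors and the borders of contact domains. Most CTCF sites lie in gene-rich chromatin, many of them near promoters. Long stretches with few CTCF sites are usually poor in genes or lie inside very long genes, and many of them lie at the nuclear lamina in repressed chromatin.

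On chromosomes 1 to 22 the D3 list held 56103 peaks, the E4 list 38209 and the WT list 37735. The lists give no read totals, so depth is unknown, and the longer D3 list by itself adds regions that the others lack. Strength is given below as the percentile of a peak's −log10 q in the whole list of its own library, where 100 is the strongest peak. Ranges in brackets after shares and medians are exact 95% binomial intervals, for the error of counting alone, since no culture was repeated. Coordinates are in hg19, counted from 1. No genome of that build was used here, so the regions are given by position without their sequence and without exon or intron.

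Isolation was a matter of degree. The smaller flanking gap of the isolated regions had a median of 135 kb (quartiles 115 and 178 kb) and the larger gap one of 236 kb (163 and 361 kb), while the gaps between all neighbouring regions had a median of 23 kb. Only 290 regions had more than 200 kb free on both sides, 92 more than 300 kb and 14 more than 500 kb. At the threshold itself, chr2:154828143-154828828 (D3 only) and chr2:143043948-143044833 (all 3 lists) were just inside, with a smaller gap of 100015 and 100122 bp. Just outside were chr1:185967479-185968091 (D3 and E4) and chr9:27888388-27889304 (all 3 lists), with 99975 and 99950 bp. The isolated regions covered 1.19 Mb, or 2.01% of the 58.9 Mb that all regions covered.

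Isolated regions were found on all 22 chromosomes, and most densely on chromosomes 13, 18 and 21. On chromosome 13, 87 of 1418 regions were isolated, 6.14% (4.94 to 7.51). On chromosome 18 the share was 5.62% (68 of 1211), and on chromosome 21 it was 4.89% (30 of 614). Chromosome 2 held the highest number, 159, followed by chromosome 5 with 136 and chromosomes 3 and 4 with 113 each. The gene-rich chromosomes were at the other end. Chromosome 17 had 12 isolated regions among 2822 (0.425%), chromosome 22 had 8 among 1240 (0.645%) and chromosome 19 had 19 among 2018 (0.942%). The interval lay above the share of all 22 chromosomes on 7 of them (2, 4, 5, 9, 13, 18 and 21) and below it on 5 (1, 17, 19, 20 and 22).

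Thinly covered chromosomes had the higher shares. Chromosome 13 had 148 regions per 10 Mb of its span from first to last region, against 348 on chromosome 17 and 353 on chromosome 22. Across the 22 chromosomes, Spearman's rho between regions per 10 Mb and the share isolated was −0.956. Both measures count the same regions, so the value describes the spacing and has no p-value.

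**Figure D1:**
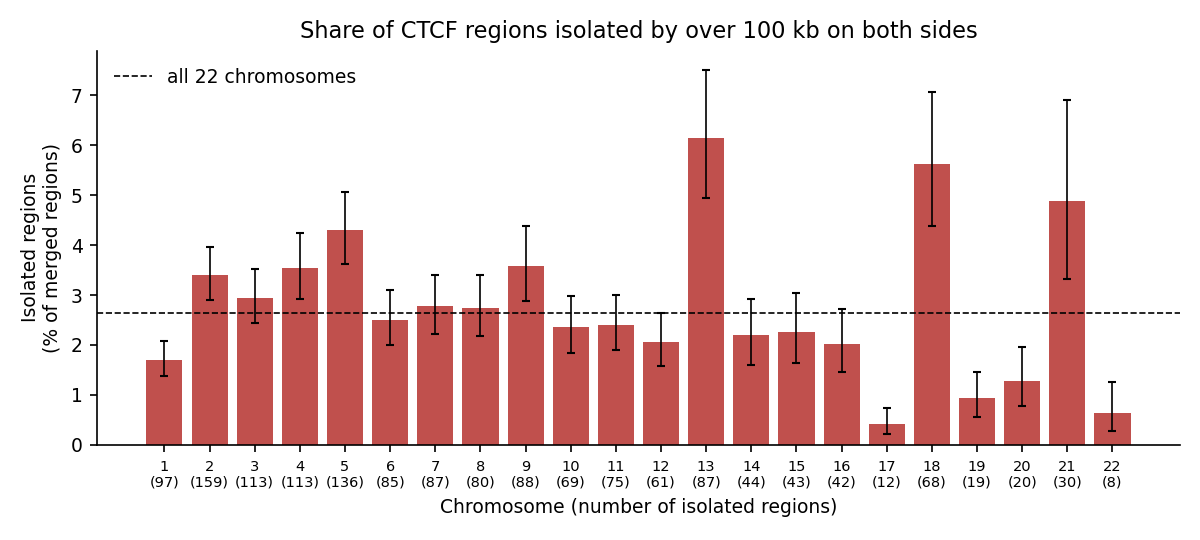
Share of merged CTCF regions that were isolated (y axis, percent) on each of chromosomes 1 to 22 (x axis, with the number of isolated regions), with exact 95% binomial intervals as error bars and the share of all 22 chromosomes as a dashed line. Chromosomes 13 (6.14%), 18 (5.62%) and 21 (4.89%) stand highest, and chromosome 17 (0.425%) lowest.

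Isolated regions were counted in 13 gene-poor chromosome blocks and 35 very long genes, with rounded windows placed from general knowledge of the build. The windows were chosen with earlier results of these data known, so the counts are a description and no check of the isolated set. In the blocks, 137 of 840 regions were isolated, 16.3% (13.9 to 19.0), against 2.43% (2.31 to 2.56) of the regions elsewhere. The share of each of the 13 blocks lay above that of the whole set, 2.63%. The intervals of 2p16 (0.791 to 21.4) and 8q23 (1.61 to 11.1) held that value. Blocks are thinly covered, so a high share follows in part from how isolation is defined. The highest shares were in 16q21 (4 of 11), 14q31 (7 of 20) and 21q21 (16 of 47). The highest numbers of isolated regions were in 5p14, a block of classical cadherin genes, with 25 of 116, and in 13q21, which holds protocadherin genes, with 19 of 107. The remaining blocks had 13 of 148 (3p12), 12 of 42 (18q22), 9 each (1q31, 4q28 and 14q21, of 55, 77 and 38), 7 of 46 (6q12), 5 of 102 (8q23) and 2 of 31 (2p16). The blocks held 8.92% of all isolated regions, so 1399 isolated regions lay outside them.

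Inside the long genes, most of which encode adhesion, receptor or synaptic proteins, 58 of 402 regions were isolated, 14.4% (11.1 to 18.2), against 2.55% elsewhere. As in the blocks, the share rests on the same spacing that defines isolation. Of the 35 gene windows, 29 held at least 1 isolated region and 17 held 2 or more. FHIT, a hydrolase gene that spans a common fragile site, had 6 of 9. PTPRD, which encodes a receptor tyrosine phosphatase, had 5 of 12, and LRP1B, which encodes a receptor of the LDL receptor family, had 4 of 18. CSMD1 (3 of 12) and the photoreceptor gene EYS (3 of 25) followed. The netrin receptor gene DCC had 2 of 4, and RBFOX1, a splicing regulator gene, and OPCML, an adhesion molecule gene, had 2 of 5 each. The adhesion genes PCDH15 and CNTN5 had 2 of 6 each, WWOX 2 of 11, CNTNAP2 and CDH13 2 of 12 each, the synaptic scaffold gene DLG2 2 of 14, NRXN3 2 of 17 and CTNNA3 2 of 19. No isolated region lay in CTNNA2, ERBB4, CADM2, GPC5, GPC6 or DSCAM. All 3 lists called 18 of the 58 isolated regions in the genes, 31% (19.5 to 44.5), where 54.3% of all regions were so called. In the blocks they called 42 of the 137 isolated regions, 30.7% (23.1 to 39.1), against 35.1% (31.6 to 38.8) of the 703 other regions of the same blocks. Regions of the blocks thus had a low share whether isolated or not, and the intervals overlapped. By list, D3 had a peak in 96.4% of the isolated regions of the blocks, E4 in 48.9% and WT in 39.4%, against 96.7%, 55.9% and 42.8% of the other regions there.

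A smaller share of the isolated regions than of the other regions was called in every population. All 3 lists called 529 isolated regions, 34.4% (32.1 to 36.9), against 54.8% (54.4 to 55.3) of the other regions, and 54.3% of all regions. The share was lower among isolated regions on each of the 22 chromosomes, with 3 of 30 isolated regions on chromosome 21, 3 of 20 on chromosome 20 and 21 of 44 on chromosome 14. D3 alone called 589 isolated regions, 38.3% (35.9 to 40.8), against 25.6% of the other regions, and 26.0% of all. A further 184 were called in D3 and E4 (12%, against 8.87% of other regions), 143 in D3 and WT (9.31%, against 6.62%), 48 in E4 only (3.13%, against 1.39%) and 6 in E4 and WT (0.391%, against 0.213%). Among all regions these patterns made up 8.95%, 6.69%, 1.44% and 0.218%. WT alone called 37 isolated regions, 2.41% (1.70 to 3.31), and 2.42% of the other regions, which is also the share of all regions (2.42%).

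Counted by list, D3 had a peak in 1445 isolated regions (94.1%), E4 in 767 (49.9%) and WT in 715 (46.5%), against 96.0%, 65.3% and 64.1% of the other regions. Among all regions the shares were 95.9%, 64.9% and 63.6%. The lists have unequal length, so the D3 share cannot be read as more binding. With each list held to its strongest 38645 peaks before merging, 2075 regions were isolated. All 3 lists then called 49.1% of them, against 66.7% of other regions, D3 alone 12.4% against 5.70%, E4 alone 9.25% against 6.18%, and WT alone 8.92% against 7.04%. The direction was the same as in the full lists for all 3 lists, D3 alone and E4 alone, but the D3-only share of isolated regions was 12.4% in place of 38.3%. The WT-only share, 2.41% against 2.42% in the full lists, was higher in isolated regions at equal length. Of the 1536 isolated regions, 1053 (68.6%) kept a peak at equal length. All 1053 were isolated again, which follows from the setting, since fewer peaks leave wider gaps.

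**Figure D2:**
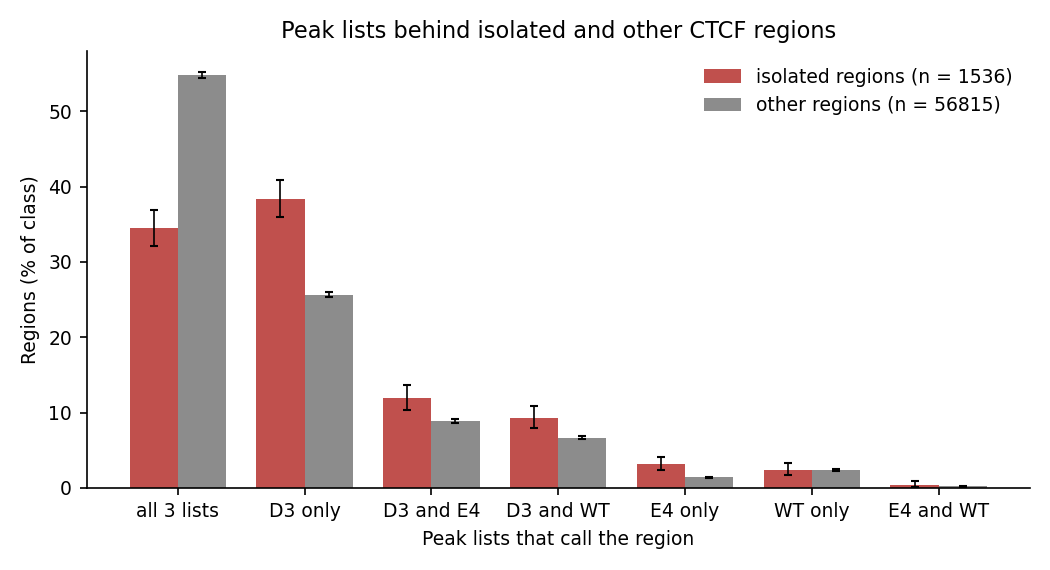
Share of regions (y axis, percent) called by each combination of the D3, E4 and WT peak lists (x axis), for the 1536 isolated regions (red) and the 56815 other regions (grey), with exact 95% binomial intervals as error bars. All 3 lists call 34.4% of the isolated and 54.8% of the other regions, and D3 alone calls 38.3% and 25.6%.

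Regions called in few lists were weak in the list that called them. D3-only isolated regions had a median percentile of 21.7 in D3 (20.3 to 23.3), and for 145 of the 589 the −log10 q reached 5, or 24.6% (21.2 to 28.3), against 18.3% of the other D3-only regions, and 18.5% of all D3-only regions. As a share of isolated D3 peaks they were 40.7% (38.2 to 43.3), against 26.6% of other D3 peaks, and 27.0% of all D3 peaks. The strongest were chr14:98604527-98605543, chr18:51435895-51436540 and chr3:131267921-131269026, with a D3 fold of 7.95, 8.80 and 8.24, at the 67.6th, 65.1st and 64.0th percentile of the D3 list. The 48 E4-only regions were 6.23% (4.63 to 8.18) of the isolated E4 peaks, against 2.11% of other E4 peaks, and 2.19% of all E4 peaks. One of the 48 reached a −log10 q of 5, against 2.91% of other E4-only regions, and 2.86% of all of them. It was chr16:51558626-51559400 (fold 5.45, 36.4th percentile of E4). It was followed by chr9:82093173-82093849 (fold 4.61) and chr2:142156869-142157280 (fold 5.00), which lies in the LRP1B window. Of the 37 WT-only regions 0 did, which allows a share of up to 9.49%, against 0.364% of other WT-only regions, and 0.354% of all of them. They were led by chr8:86810905-86811180, chr9:76298815-76299195 and chr19:28619484-28619756, with a WT fold of 4.89, 4.88 and 3.95, and had a median percentile of 5.85 in WT (3.30 to 7.66). D3-only regions outside the isolated set had a lower median percentile, 16.9, and WT-only regions outside it one of 5.76.

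Regions of D3 and WT reached higher ranks. Among the 143 regions of D3 and WT that E4 lacked, chr9:87568671-87569772 had a fold of 15.6 in D3 (94.1st percentile) and 5.15 in WT (59.6th). The next was chr13:107569808-107571142, with a fold of 14.4 in D3 (91.8th percentile) and 7.93 in WT (80.8th). The third, chr6:408306-409425, had a fold of 10.7 in D3 (85.8th percentile) and 4.73 in WT (44.1st). E4 had no peak in any of these, although each was in the strongest quintile of the D3 list. Of the 184 regions of both clones without WT, 21 reached a −log10 q of 5 in D3 and E4 alike, or 11.4% (7.21 to 16.9), and 11.2% of other such regions did, which is also the share of all of them (11.2%). The one that ranked first in D3 was chr9:41229974-41230478, with a fold of 9.91 in D3 (71.6th percentile) and 5.22 in E4 (34.4th). It was followed by chr2:82250563-82251761 (9.08 in D3 and 3.71 in E4) and chr6:165853184-165853851 (8.85 and 6.09). The 6 regions of E4 and WT without D3 were weak, with the strongest at chr21:36880644-36881171 (fold 5.84 in E4 and 4.20 in WT), then chr3:101717065-101717601 (4.92 and 3.77) and chr13:22677020-22677639 (4.11 and 2.91).

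Some isolated regions ranked near the top of every list. Of the 529 called in all 3 lists, 168 reached a −log10 q of 5 in each of them, or 31.8% (27.8 to 35.9), against 57.7% of the other regions called in all 3 lists, and 57.3% of all such regions. By WT strength the first was chr1:147553350-147553956, whose fold was 27.9 in D3, 12 in E4 and 16 in WT, at the 99.6th, 93.7th and 99.5th percentile. The region chr6:73121403-73122757 had folds that reached 27.8 in D3, 23 in E4 and 12.6 in WT, above the 99th percentile of each list. Next came chr16:5288745-5290414 (fold 16.1, 18.8 and 13.4 in D3, E4 and WT), chr9:43133153-43134393 (15.8, 13.9 and 12.4) and chr1:211306791-211309288 (14.1, 9.83 and 11.2). In the WT list, strong peaks were less often isolated than weak ones. Of the WT peaks in the strongest quintile of the list 0.572% were isolated (44 peaks), and of those in the weakest quintile 2.92% (219 peaks).

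Taken over all combinations of lists, isolated peaks were weaker and narrower than other peaks in each of the 3 lists. Their median percentile was 38.6 in D3 (36.3 to 40.3), 28.9 in E4 (25.8 to 31.9) and 34.6 in WT (32.3 to 37.9), against 51.0, 51.4 and 50.9 for other peaks. The median fold was 5.36 in D3, 4.90 in E4 and 4.58 in WT, against 6.37, 6.45 and 5.29. Peak widths had a median of 675 bp in D3, 555.5 bp in E4 and 483 bp in WT, against 889, 761 and 649 bp. Split by combination, isolated regions called in all 3 lists had lower median percentiles, 62.1 against 72.2 in D3, 37.7 against 59.4 in E4 and 40.9 against 57.9 in WT. Isolated regions ranked higher among D3-only regions (21.7 against 16.9) and those of D3 and WT (43.1 against 36.0 in D3). For D3 and E4 the D3 medians were 35.6 and 34.3, for E4 only 5.53 and 6.30, and for WT only 5.85 and 5.76. Within each list the distributions overlapped widely. The upper quartile of the isolated peaks, at the 59.1st percentile in D3, the 48.5th in E4 and the 55.4th in WT, lay above the median of the others in D3 and WT and below it in E4.

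**Figure D3:**
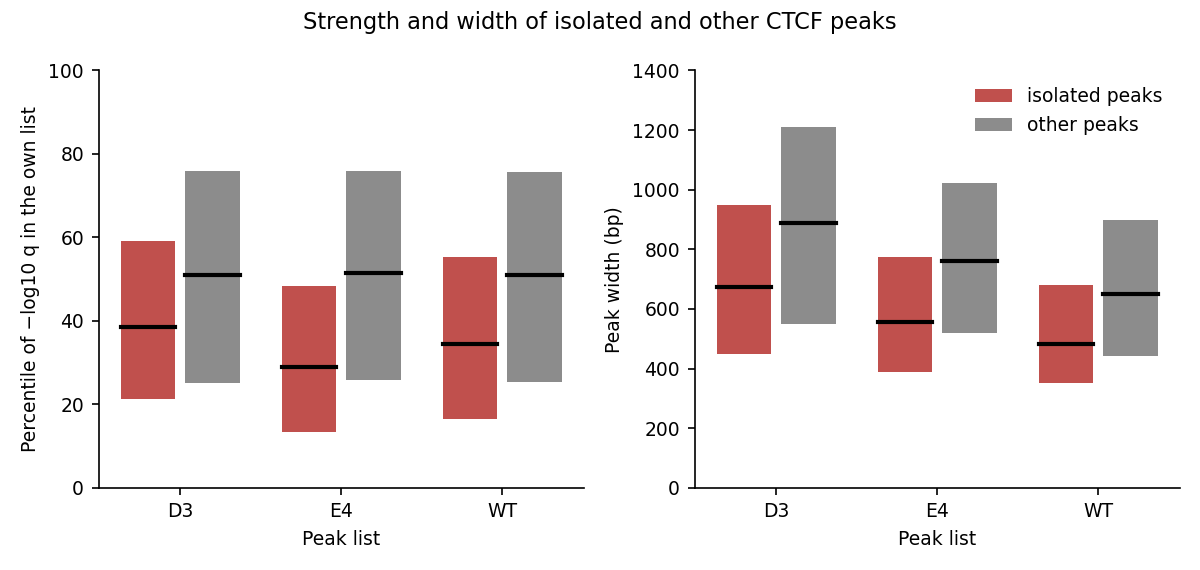
Percentile of −log10 q within the own list (left, y axis) and peak width in bp (right, y axis) of isolated peaks (red) and other peaks (grey) in the D3, E4 and WT lists (x axis). Boxes span the quartiles and black lines are medians; isolated peaks have the lower median percentile (38.6, 28.9 and 34.6, against 51.0, 51.4 and 50.9) and the smaller median width in each list.

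After merging, isolated regions had a median width of 695 bp (672 to 722), against 929 bp for other regions. A merged region spans all its peaks, so regions called in more lists are wider by construction, and widths are compared within a combination. D3-only regions had a median of 443 bp in both classes, and regions called in all 3 lists one of 1024 bp when isolated (984 to 1050), against 1202 bp otherwise (1197 to 1207). Isolated regions had the smaller median in D3 and E4 (687.5 against 724 bp), E4 only (329 against 359 bp) and WT only (320 against 341 bp). They had the larger one in D3 and WT (804 against 771 bp) and in E4 and WT (634 against 536 bp). Within quintiles of the same list isolated peaks had the smaller median width in 15 of 15 cases, though not always beyond their interval. In the strongest quintile of D3 the medians were 1105 bp (1024 to 1156) and 1284 bp (1276 to 1292), in that of E4 1036 bp (876 to 1195) and 1067 bp (1059 to 1074), where the interval of the isolated peaks spans both, and in that of WT 750.5 bp (686 to 843) and 914 bp (906 to 924). The widest isolated regions were chr17:31847056-31850466 (3411 bp), chr1:208824986-208828160 (3175 bp) and chr9:113798337-113801180 (2844 bp), each called in all 3 lists. In the first of these the fold was 9.29 in D3, 3.36 in E4 and 6.91 in WT. The narrowest were chr5:4700267-4700511 and chr14:83322339-83322583, both 245 bp, the smallest width in the D3 list, and, tied at 246 bp, chr7:68532514-68532759 and chr2:162544243-162544488, all called in D3 only.

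A difference in sharing was also seen among D3 peaks of like strength in the middle 3 quintiles, and with E4 alone, by a narrow margin, in the strongest. D3 peaks were divided into quintiles by −log10 q and the isolated ones were set beside other D3 peaks of the same quintile. In the second quintile from the bottom, E4 overlapped 30.5% of the isolated peaks (26.2 to 35.1) and 41.9% of the others (40.9 to 42.8), and WT overlapped 23.1% and 35.4%. In the middle quintile the shares with E4 were 69.6% and 77.7%, and those with WT 63.1% and 73.6%. In the fourth quintile they were 84.0% and 95.3% with E4, and 92.6% and 96.3% with WT. In the weakest quintile the shares were 13.3% (9.83 to 17.4) and 15.5% (14.8 to 16.2) with E4, and 9.37% (6.45 to 13) and 12.5% (11.9 to 13.1) with WT. In the strongest quintile they were 96.7% (90.8 to 99.3) and 99.5% (99.3 to 99.6) with E4, and 100% and 99.9% with WT. Median percentiles of the isolated and other D3 peaks were 29.8 and 30.0 in the second quintile, 50.0 and 50.0 in the middle one, 67.7 and 70.1 in the fourth, and 86.9 and 90.1 in the strongest. In the fourth and strongest quintiles, then, the isolated peaks were also somewhat weaker.

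**Figure D4:**
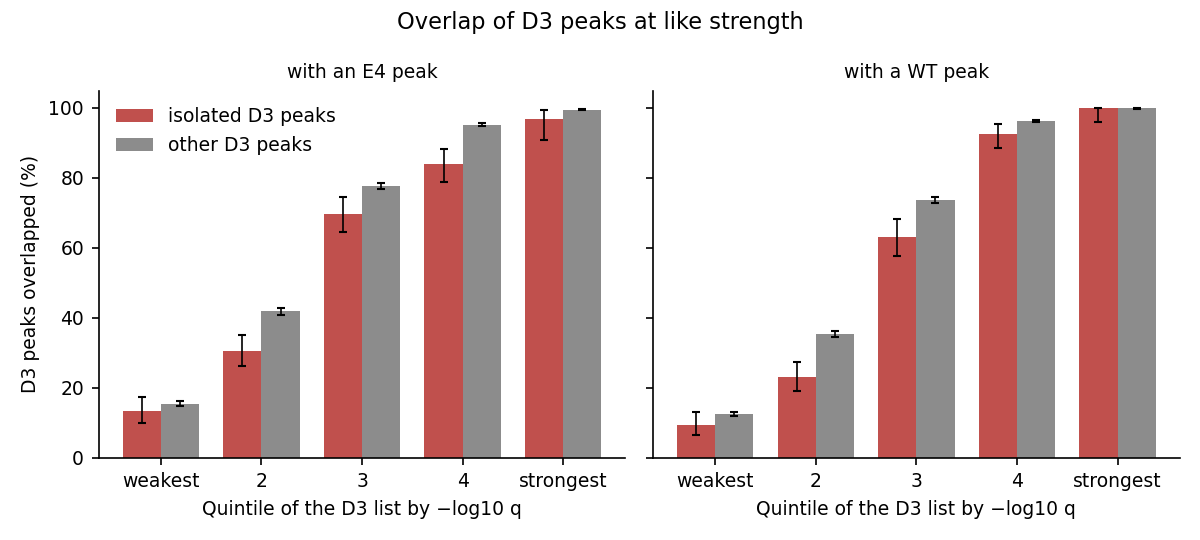
Share of D3 peaks (y axis, percent) that overlap an E4 peak (left) or a WT peak (right), by quintile of the D3 list from weakest to strongest (x axis), for isolated D3 peaks (red) and other D3 peaks (grey), with exact 95% binomial intervals. Isolated peaks have the lower share in the middle 3 quintiles, for example 69.6% against 77.7% with E4 in the middle quintile.

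For WT peaks the overlaps with D3 and E4 differed, but the D3 list is the longer one, with 56103 peaks against 38209 in E4. In the middle quintile of the WT list D3 overlapped 100% of the isolated peaks and 99.8% of the others, which leaves little room for a difference. List length and clone thus cannot be told apart here. D3 overlapped 680 of the 723 isolated WT peaks, 94.1% (92.1 to 95.7), against 96.0% of other WT peaks, and within quintiles the shares were 82.2% and 81.9% in the weakest and 98.0% and 97.9% in the second. E4 overlapped 541 of the isolated WT peaks, 74.8% (71.5 to 78.0), against 86.1%. Its shares were 52.1% (45.2 to 58.8) and 54.1% in the weakest quintile, and 77.0% (70.6 to 82.6) and 83.2% (82.3 to 84.0) in the second. In these 2 quintiles the intervals overlapped or held the other share. In the middle quintile of the WT list E4 overlapped 86.2% of the isolated peaks (79.7 to 91.2) and 93.9% of the others (93.4 to 94.5), and in the fourth 92.3% (85.4 to 96.6) and 98.5% (98.3 to 98.8). WT peaks missing from both clones numbered 37 of the 723 isolated ones, 5.12% (3.63 to 6.99), against 3.71% of other WT peaks, and 3.74% of all WT peaks. Of these 37, 35 came from the weakest quintile, where the shares were 16% (11.4 to 21.5) of isolated and 17.1% (16.2 to 18) of other WT peaks. The remaining 2 came from the second quintile, with 0.980% and 1.60%. The share of isolated WT peaks missing from both clones depended on the settings, at 12.7% with lists of equal length, 11.1% with gaps over 200 kb and 0.659% with only peaks whose −log10 q reached 5. The share of other WT peaks was not computed at these settings, so a change in the isolated peaks cannot be told from one in the whole list.

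Ranks were also taken within the 31692 regions called in all 3 lists, which gives the lists equal length. The 529 isolated ones had a median rank of 34.2 in D3 (32.0 to 38), 26.5 in E4 (24.2 to 29.3) and 32.0 in WT (29.5 to 34.8), on a scale where the other shared regions had medians of 50.3, 50.5 and 50.4. Region by region, the difference of D3 less WT had a median of 1.03 points (−1.40 to 2.72) in isolated regions and −0.0284 in others. That of E4 less WT was −2.00 points (−3.86 to −0.764) in isolated regions and 0.319 (0.136 to 0.495) in others. The clones differed most from each other, with D3 less E4 at 5.27 points (2.41 to 7.04) in isolated and −0.603 in other regions. D3 ranked above E4 in 318 of the 529 isolated regions, 60.1% (55.8 to 64.3), against 47.7% of the others. These medians are small beside the spread of single regions, whose quartiles for E4 less WT were −17.1 and 7.48 points. With 1 library per population they compare libraries, not genotypes.

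Beyond 1 kb, regions with wider empty flanks were called in fewer lists. By the smaller of its gaps, the share called in all 3 lists was 41.0% of the 549 regions up to 1 kb from a neighbour, 58.3% from 1 to 10 kb, 54.0% from 10 to 30 kb and 48.4% from 30 to 100 kb. Among isolated regions it was 36.5% (33.4 to 39.7) from 100 to 150 kb, 35.4% from 150 to 200 kb, 28.3% (22.1 to 35.1) from 200 to 300 kb and 26.9% (17.5 to 38.2) from 300 to 500 kb. The D3-only share in these 4 classes was 35.9%, 39.8%, 38.4% and 56.4%. Of the 14 regions beyond 500 kb, too few for a share, 1 was called in all 3 lists and 9 in D3 only. The median percentile of D3 peaks over the 4 classes was 39.9, 38.2, 39.4 and 29.8, that of E4 peaks 31.9, 27.2, 23.7 and 20.3, and that of WT peaks 37.4, 34.2, 28.1 and 32.3. Only the E4 medians were lower in each wider class, and the last class held 76 D3, 27 E4 and 28 WT peaks.

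**Figure D5:**
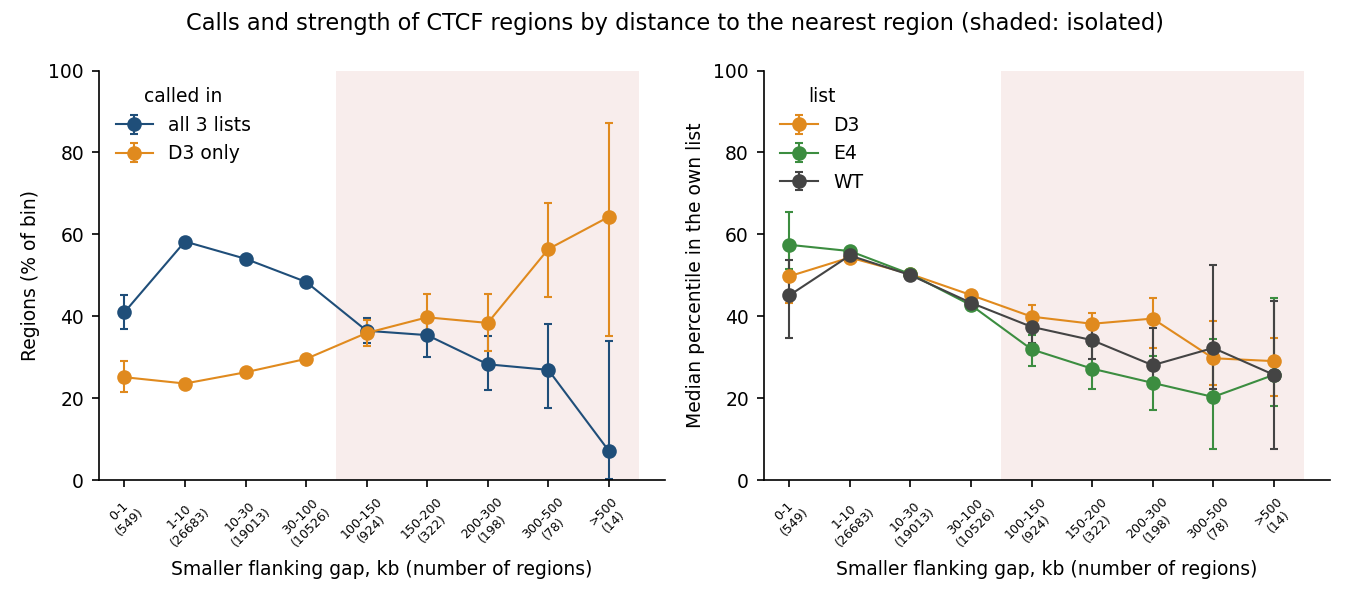
Share of regions called in all 3 lists and in D3 only (left, y axis in percent), and median percentile of −log10 q in the D3, E4 and WT lists (right, y axis), by the smaller flanking gap in kb (x axis, with the number of regions), with exact 95% binomial intervals. The share called in all 3 lists is 58.3% from 1 to 10 kb and 26.9% from 300 to 500 kb; the shaded classes are the isolated regions.

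By the smaller gap, the most isolated region of the set was chr11:51559803-51560424, called in D3 only (fold 4.79, 29.0th percentile). It had 1542 kb free on the left and 3565 kb on the right. How much of these gaps is unassembled sequence was not checked, since no genome was used. The region was followed by chr16:60237395-60238068 and chr16:61182757-61183160 in the 16q21 block, neighbours 944.7 kb apart, both called in D3 only with a fold of 4.09 and 4.82. The fourth, chr7:68532514-68532759, was again in D3 only (fold 3.14). The fifth, chr21:24164315-24164854 in the 21q21 block, was called in all 3 lists, between gaps of 869.5 and 660.2 kb. Its fold was 7.14 in D3, 4.60 in E4 and 5.17 in WT, at the 53.2nd percentile in D3, the 21st in E4 and the 43.8th in WT.

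Gaps over 1 Mb bordered 32 isolated regions, of which 17 were called in D3 only and 8 in all 3 lists. The 3 longest of these gaps, 21211 kb on chromosome 1, 18409 kb on chromosome 9 and 11444 kb on chromosome 16, started or ended at chr1:121345357-121345667 (WT only), chr9:65613711-65614397 (D3 and E4) and chr16:35143136-35143778 (D3 only). As background, large gaps in any peak list of hg19 include the centromeres, for which this build holds no assembled sequence. Without the 32 regions, all 3 lists called 34.6% of the remaining 1504. A gap of 3248 kb without any peak lay in the 13q21 block, between chr13:54356253-54357040 (D3 and E4) and chr13:57604863-57605168 (E4 only). Another, of 1630 kb, ended in the window of AUTS2, at chr7:70162908-70163812, which all 3 lists called. The fold there was 8.02 in D3, 3.98 in E4 and 3.27 in WT.

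Isolated regions often came in a row. Of the 1536, 805 (52.4%) had an isolated region as their next or previous neighbour, in 295 runs of 2 or more, and 117 runs held 3 or more. The longest run lay on chromosome 9 from 81869776 to 84716810, with 8 regions in 2.85 Mb. D3 called 6 of these, E4 5 and WT 3. The 3 that WT called were called in all 3 lists, and they stood in the middle of the run. At chr9:82789639-82790806 the fold was 5.01 in D3, 5.98 in E4 and 4.17 in WT, at chr9:84137514-84138458 it was 8.78, 6.51 and 4.44, and at chr9:84301545-84302598 it was 10.7, 9.58 and 4.38. The other regions of the run were called in 1 list each, 3 in D3 and 2 in E4. Runs of 7 lay on chromosome 2 from 4006479 to 6493754 and on chromosome 11 from 97140340 to 98326704. All 7 regions of the chromosome 11 run were called in D3, 4 of them also in E4 and none in WT.

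Peaks of 2 lists share a region because they overlap or are joined by another peak, so short distances between them follow from the merging. Peaks were also narrower in isolated regions. In those with 1 peak of each, D3 and WT had median widths of 919 and 490 bp, against 1080 and 656.5 bp in other regions. The centres of D3 and WT peaks were a median of 88 bp apart (76.5 to 93) in 663 isolated regions with 1 peak of each, against 96 bp in other regions. For E4 and WT the median was 76 bp against 83.5 bp, and for D3 and E4 77.2 bp against 85.5 bp. The WT peak lay wholly inside the D3 peak in 73.9% of these isolated regions and 72.3% of the others.

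The D3 list largely set which regions counted as isolated. On the E4 list alone 2241 peaks had over 100 kb free on both sides, and 764 of these (34.1%) were in isolated regions after merging. On the WT list alone it was 2377 peaks, of which 707 (29.7%) were. On the D3 list alone 1606 peaks were isolated, and 1443 (89.9%) were in isolated regions.

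On chromosome 8, which carries MYC, 80 of 2924 regions were isolated (2.74%). D3 called 70 of them, 87.5% (78.2 to 93.8), E4 39, 48.8% (37.4 to 60.2), and WT 49, 61.3% (49.7 to 71.9). The shares of the other regions of this chromosome were 92.0%, 58.3% and 68.2%. Over all chromosomes the isolated shares were 94.1%, 49.9% and 46.5%, and the shares of other regions 96.0%, 65.3% and 64.1%. On chromosome 8 the D3 share was thus lower and the WT share higher in both classes. The E4 share was lower in other regions, while among isolated ones its interval held the share of all chromosomes. Isolated regions had like D3 shares on chromosomes 13 (87.4%) and 22 (87.5%), and a WT share of 62.5% on chromosome 22. Their E4 share was lower on chromosomes 2 (46.5%) and 11 (45.3%), among others. Other regions had a WT share at least as high on chromosomes 15 (68.3%), 17 (73.4%) and 19 (71.3%).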

How the data were processed

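CTCF chromatin immunoprecipitation libraries of clone D3, clone E4 and wild-type HCT-116 cells were used, 1 per population, grouped by their titles. Cells were fixed with formaldehyde, per the labels' protocols. Build hg19, MACS2 2.2.7.1, bedtools 2.29.2, Picard 2.23.1 and CASAVA 1.8.2 stand in the submitters' processing notes, with no role or order. Not given in the sources used here are the aligner, the peak settings and the use of a control. The authors deposited 1 broad peak list per library, so peaks were called per sample. The fold per peak (a ratio over the caller's background), the −log10 p and the −log10 q are the authors' values. The score column that the authors deposited was not used. These values move with depth, which is unknown, so peaks were ranked only within their own list. The exception is the fixed cut at a −log10 q of 5, which was applied to every list alike. It was stricter for WT than for either clone. The last peak on chromosome 1 ends at 249239251.

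Regions were merged and isolated with Python 3.11.15, pandas 2.3.3 and scipy 1.17.1, tested on simulated peaks, and all 58351 merged regions were the same as those of bedtools 2.31.1. The first and last region of each chromosome (44 regions) have 1 neighbour and were not kept. A region's values in a list are those of its strongest peak there. Medians carry order-statistic intervals, shares Clopper-Pearson ones. Windows of long genes and gene-poor blocks, rounded and written from general knowledge, were checked against RefSeq GRCh38.p14 for names only: 35 of 35 genes were on the same chromosome, in the same order on 10 of 10 chromosomes with several. The members, windows and lists were chosen with earlier results of these data known. Named are the 5 regions with the largest smaller gap, the 5 of highest WT −log10 q called in all 3 lists, the 3 highest of each other combination, the 3 widest and narrowest, 2 on either side of the gap threshold, the longest run and every window with 2 or more isolated regions, except 1 gene window that is not reported here. The AUTS2 region, the runs of 7, the longest gaps, the tied narrow region and chromosome 8 were named after their values were seen.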

Additional observations from a re-analysis of the deposited data

Results flagged for a closer look

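In 4 of 6 values looked at, D3 and E4 lay on opposite sides of WT. The median percentile of isolated peaks was 38.6 in D3, 28.9 in E4 and 34.6 in WT, a gap of 9.71 points between the clones. Ranked by fold it was 39.9 in D3, 30.0 in E4 and 36.1 in WT, a gap of 9.92 points. The median rank within regions called in all 3 lists was 34.2 in D3, 26.5 in E4 and 32.0 in WT, a gap of 7.69 points. The ratio of the median width of isolated peaks to that of other peaks was 0.759 in D3, 0.730 in E4 and 0.744 in WT, a gap of 0.0293. The lists differ in length, which bears on the first pair of percentiles. Of the 4 values, 3 are versions of a rank of the same peaks, so they are not separate findings. Region by region, the shared rank of D3 less WT had a median of 1.03 points (−1.40 to 2.72), an interval that spans 0. These differences were not tested, since each population had 1 library.

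Chromosome X, which the definition of the isolated regions leaves out, held 160 isolated regions of 1879, or 8.52% (7.29 to 9.87), a higher share than on any of chromosomes 1 to 22. All 3 lists called 41 of them, 25.6% (19.1 to 33.1), against 44.3% of the 1719 other regions of this chromosome. D3 had a peak in 97.5% of the isolated regions, E4 in 49.4% and WT in 35.0%, against 97.1%, 66.3% and 49.4% of the others.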

How the results depend on the processing

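The 47 alternatives left 23 results inside their own counting interval (counts: under a 1.5-fold change) and moved 24. A reversal could be seen only in the rank differences without chromosome 8, 3 of the 47, since the other values have no sign. None of these 3 reversed. No paired analysis was possible because each population had a single CTCF library, for which reason none could be left out as a replicate. Gaps over 50 kb gave 5977 isolated regions, 43.3% called in all 3 lists, 32.2% in D3 only, a median width of 773 bp and a median WT percentile of 39.2. Gaps over 200 kb gave 290, 26.9%, 44.5%, 642.5 bp and 28.1, with 11.1% of isolated WT peaks missing from both clones. With only peaks whose −log10 q reached 5 there were 2307 isolated regions, 25.4% in all 3 lists, 48.5% in D3 only, 906 bp, a WT percentile of 66.3 and 0.659% missing. This cut removes a larger part of the WT list than of the D3 list. Of the other regions, all 3 lists called 55.6% with gaps over 50 kb, 54.4% with gaps over 200 kb and 48.6% with the cut. D3 alone called 25.3%, 25.9% and 28.8% of them. At equal list length 49.1% were called in all 3 lists, against 66.7% of other regions, and 12.4% in D3 only, against 5.70%. The width was 846 bp and 12.7% were missing. When a list had to cover 50% of the merged region to count as calling it, 15.0% were called in all 3 lists and 48.8% in D3 only. This rule by construction drops narrow peaks that share a region with a wide one, and D3 peaks were the widest. When a clone had to cover 50% of the WT peak, 7.33% were missing. Shares of other regions were not computed for these 2 rules. Why the other values moved was not tested, except that fewer peaks leave wider gaps. The settings that left out a list gave 2132 (without D3), 1544 (without E4) and 1593 (without WT). Leaving out chromosome 8, chosen after seeing the data, moved the rank differences to 1.27 (D3 less WT), −1.92 (E4 less WT) and 4.58 (D3 less E4). Weak peaks are limited by the unknown depth.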
